A study of Sus scrofa with 12 samples.

Results

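Liver cells break down the amino acids that the body does not build into protein. The carbon of tyrosine ends as fumarate and acetoacetate, histidine yields glutamate, and serine and alanine yield pyruvate, from which the liver can make glucose. The genes described here are a hand-made list of 9 enzymes of these routes, namely TAT, HPD, HGD and FAH for phenylalanine and tyrosine, HAL for histidine, SDS for serine and threonine, and the aminotransferases GPT, GOT1 and AGXT. They were looked up by symbol among 31694 listed genes, and 8 of the 9 symbols were found. HGD was listed at 0 in all 6 libraries, which leaves 7 members with values above 0. The symbol AGXT was not matched, but LOC100517616 carries the RefSeq gene ID of AGXT and is described beside the members, without being counted as one.

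Liver was sampled from 3 Jinhua (JH) and 3 Landrace (LD) pigs, all of them uncastrated males 70 days old, and each pig gave 1 mRNA library. JH pigs come from China and tend to lay down much fat, while LD pigs, the control group of the study, are lean. The study compared the breeds to find liver genes that differ between them. Feeding state, hour of sampling and kinship of the pigs are not given in the sources used here.

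Expression is in RPKM, the reads of a gene scaled to its length in kilobases and to a read total of the library. The totals used for scaling were recovered from the steps between low values. They are not the number of reads sequenced or aligned, and came to 5744908 reads for JH1, 7757534 for JH2 and 7736802 for JH3, and to 7100535 for LD1, 7894137 for LD2 and 7914513 for LD3. The members together held between 9726 reads (JH1) and 17880 reads (JH3). Breeds were compared by limma on log2(RPKM + 0.1), a scale that understates the change of low genes, and genes needed 0.5 RPKM or more in 3 or more libraries, which 12993 genes had. Genes are named as called where the Benjamini-Hochberg adjusted p was under 0.05 and the log2 ratio of JH to LD, given as log2 fold change, was beyond 1 in size. All 7 members with values above 0 passed the filter in all 6 libraries.

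JH3 and LD3 stood apart from the other libraries in measures outside these routes. The ribosomal RNA gene RN18S reached 62257 RPKM in JH3 and 20160 RPKM in LD3, whereas JH1, JH2, LD1 and LD2 had 5991, 1570.3, 7309 and 2108 RPKM. The median log2 value of the tested genes was 2.10 in both JH3 and LD3 and lay between 2.35 and 2.42 elsewhere. Relative to the mean of JH1 and JH2, the median tested gene of JH3 was shifted by -0.30 on the log2 scale. HPD (-0.30), FAH (-0.33) and GOT1 (-0.33) were shifted by about as much, HAL (-0.62) and GPT (-1.33) by more, and TAT (1.58) and SDS (0.53) the other way.

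Hepatocyte genes were abundant in both breeds. Albumin (ALB), the main plasma protein of hepatocytes, averaged 29866 ± 3267 RPKM over the JH pigs and 47923 ± 8861 RPKM over the LD pigs (SD, n = 3 each). Of 10 hepatocyte markers, among them TAT, 8 were tested by limma, none was called and 3 had an unadjusted p under 0.05. The log2 fold change was below 0 for 7 of the 8 (median -0.24), and 4 of the 8 did not overlap between the breeds, all 4 lower in JH, as were 12.5% of all tested genes. Summed levels of the list were 51643, 46883 and 51117 RPKM from JH1 to JH3 and 82750, 65532 and 81805 RPKM from LD1 to LD3, and their part in the results on the members was not tested. APOB, a main secreted protein of hepatocytes, was listed at 0 in all 6 libraries, as were 12080 genes in total, so the value of HGD is given only as listed at 0.

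None of the 7 members was called between the breeds by limma, against 2.39% of all tested genes (1.02% higher and 1.36% lower in JH). An unadjusted p under 0.05 was reached by 1 member, SDS, and by 17.9% of all tested genes. The log2 fold change was above 0 for 3 members and below 0 for 4, with a median of -0.07 beside 0.04 over all tested genes. The bounds differed between members, since the 95% confidence intervals of fold change stayed between 0.606 and 1.44 for FAH, HAL and GOT1 while those of TAT, SDS and GPT were wider and that of HPD, 0.943 to 2.03, lay higher. A p that misses the threshold does not show equal expression. In whole liver, fewer hepatocytes and less RNA per hepatocyte cannot be told apart.

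**Figure D1:**
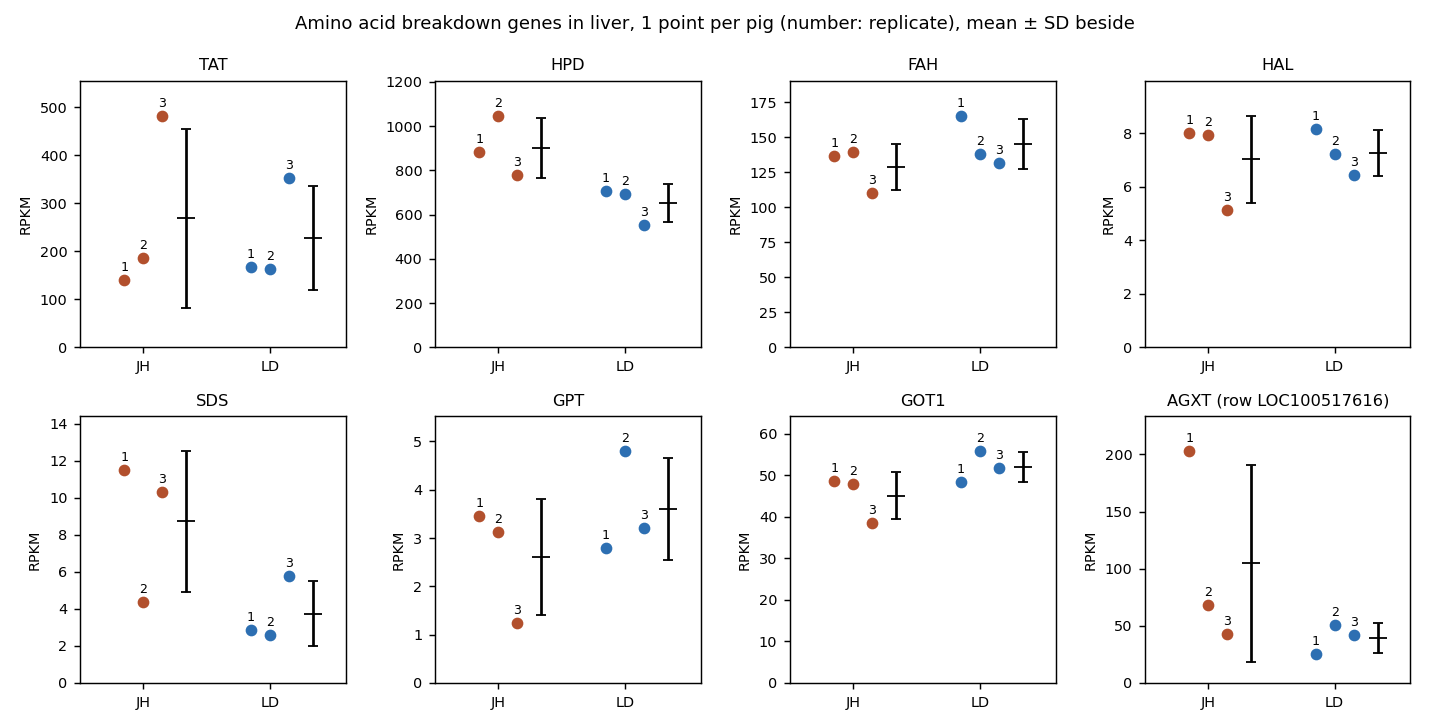
RPKM (vertical axes, from 0) of the 7 members above 0 and of LOC100517616, the gene with the ID of AGXT, in 3 JH and 3 LD livers. Each point is a pig, numbered by replicate, and the bars show the mean and SD of the breed. The breeds do not overlap in HPD, and replicate 3 is the highest of its breed in TAT.

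The tyrosine route held the most abundant members per length. Tyrosine aminotransferase (TAT) removes the amino group of tyrosine. The JH pigs had 140, 185 and 482 RPKM of TAT (JH1 to JH3), and the LD pigs had 167, 162 and 353 RPKM (LD1 to LD3). JH3 and LD3 were high, the other 4 libraries lay close together, and the breeds overlapped. TAT varied more within breeds than the 6 other members with values, with an SD of 0.80 on the log2 scale. The log2 fold change was 0.13 (SE 0.48, limma adjusted p = 0.919), and its sign turned without JH3 (-0.40), LD1 (-0.05) or LD2 (-0.07).

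Hydroxyphenylpyruvate dioxygenase (HPD) makes homogentisate in the step after TAT. Levels of HPD were 881, 1046 and 778 RPKM from JH1 to JH3 and 706, 694 and 551 RPKM from LD1 to LD3. Every JH pig was above every LD pig, a pattern shown by 10.8% of all tested genes and by no other member. Means were 902 ± 135 RPKM for JH and 651 ± 86.0 RPKM for LD (SD, n = 3 each). The limma fold change, fitted on the log2 scale, was 1.38 (95% confidence interval 0.943 to 2.03, limma adjusted p = 0.358). The exact two-sided permutation p was 0.1, the smallest possible with 3 pigs per breed. HPD was the most abundant member, at rank 94 of the tested genes, and with quantile normalization its log2 fold change was 0.25 instead of 0.47.

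Fumarylacetoacetase (FAH) splits the last intermediate of the route. In JH1, JH2 and JH3 there were 136, 139 and 110 RPKM of FAH, and in LD1, LD2 and LD3 there were 165, 138 and 131 RPKM. JH3 was lowest, LD1 was highest and the breeds overlapped. The fold change was 0.887 (95% confidence interval 0.616 to 1.28, limma adjusted p = 0.745). FAH varied little within breeds, with an SD of 0.18 on the log2 scale.

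Other steps of the route were read from a list of 11 genes that includes the enzymes for tetrahydrobiopterin, a cofactor. Of the 10 tested by limma none was called and 3 had an unadjusted p under 0.05, with a median log2 fold change of 0.16. GSTZ1, the isomerase between HGD and FAH, had a log2 fold change of -0.27 (limma, adjusted p = 0.632). SPR and PTS, which make tetrahydrobiopterin, had the largest differences of the list, with log2 fold changes of 0.86 and 0.65 (limma, adjusted p = 0.268 and 0.280).

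Histidine ammonia-lyase (HAL) starts histidine breakdown by making urocanate. The JH pigs had 8.0, 7.91 and 5.13 RPKM of HAL (JH1 to JH3), and the LD pigs had 8.14, 7.24 and 6.43 RPKM (LD1 to LD3). JH3 was lowest, and the other libraries of both breeds shared a narrow range. The fold change was 0.951 (95% confidence interval 0.629 to 1.44, limma adjusted p = 0.916), from 121 to 187 reads per library. The log2 value of -0.07 turned to 0.14 without JH3 and to 0.01 without LD1.

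Further genes of histidine metabolism numbered 5, of which 4 were tested and 1 was called. That gene was AMDHD1, which encodes imidazolonepropionase, the enzyme after urocanate hydratase. Levels of AMDHD1 were 37.2, 34.3 and 33.9 RPKM from JH1 to JH3 and 73.8, 84.6 and 73.0 RPKM from LD1 to LD3. The breeds were well separated, with AMDHD1 2.19-fold lower in JH (log2 fold change -1.13, SE 0.22, limma adjusted p = 0.0363). The adjusted p passed 0.05 without JH1, JH2, LD1, LD2 or LD3 (0.0809 to 0.131), and the call also ended without the variance trend, while the log2 fold change stayed between -1.17 and -1.06 over the libraries left out. Urocanate hydratase (UROC1) had 101 ± 21.9 RPKM in the JH pigs against 101 ± 16.5 RPKM in the LD pigs (SD, n = 3 each). FTCD, which hands the formimino group of the route to folate, had a log2 fold change of 0.35 (limma, adjusted p = 0.573). HAL was lower per length than UROC1, AMDHD1 and FTCD in all 6 libraries.

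**Figure D2:**
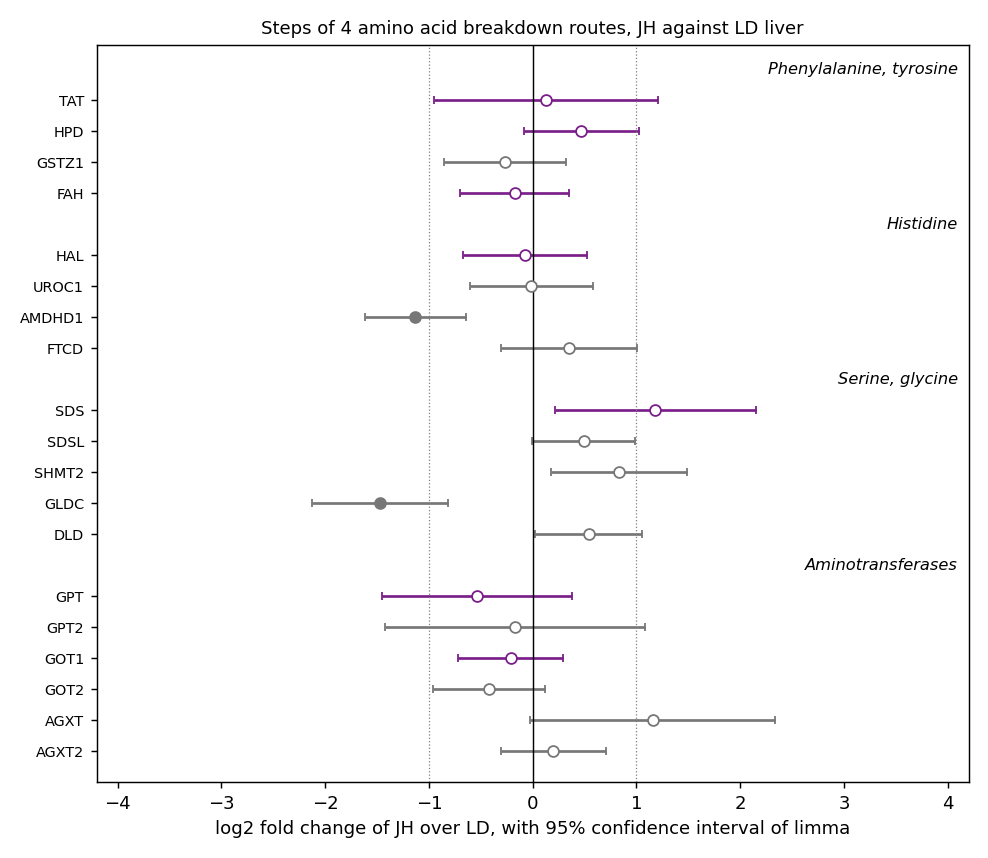
Log2 fold change of JH over LD (horizontal axis) for steps of 4 amino acid breakdown routes, with 95% confidence intervals from limma. Purple marks members and grey the other genes, AGXT standing for LOC100517616. Filled points, AMDHD1 and GLDC, were called, and dotted lines mark a log2 fold change of 1 in either direction.

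Serine dehydratase (SDS) turns serine into pyruvate and threonine into oxobutyrate, and it had the largest fold change of the 7 members. In JH1, JH2 and JH3 there were 11.5, 4.39 and 10.3 RPKM of SDS, and in LD1, LD2 and LD3 there were 2.86, 2.57 and 5.76 RPKM. JH1 and JH3 were above all LD pigs, but JH2 was below LD3, so the breeds overlapped. Means were 8.72 ± 3.79 RPKM for JH and 3.73 ± 1.76 RPKM for LD (SD, n = 3 each). The limma fold change, fitted on the log2 scale, was 2.27 (95% confidence interval 1.16 to 4.43). The unadjusted limma p was 0.0221 and the adjusted p was 0.194, so SDS was not called. Over 15 alternatives of the processing the log2 fold change ran from 0.93 (without JH1) to 1.61 (without JH2) and the adjusted p from 0.0972 to 0.416.

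SDS rests on few reads, 120, 62 and 145 for JH1 to JH3 and 37, 37 and 83 for LD1 to LD3. Exact Poisson 95% intervals, which cover counting error only, were 3.36 to 5.63 RPKM for JH2 and 4.59 to 7.14 RPKM for LD3. These intervals overlapped, which is not a test of a difference, so the order of JH2 and LD3 is left uncertain. The interval of JH1, 9.51 to 13.7 RPKM, did not reach that of JH2.

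Serine, glycine and threonine breakdown had 13 further genes listed, of which 7 were tested. The breeds did not overlap in any of the 7, with JH above in 4 and below in 3, whereas 23.4% of all tested genes did not overlap. The list was written with earlier results known, and 1 of the 7 was called. Glycine decarboxylase (GLDC) is a subunit of the glycine cleavage system. JH1, JH2 and JH3 had 7.29, 11.4 and 14.7 RPKM of GLDC, and LD1, LD2 and LD3 had 29.9, 31.9 and 27.8 RPKM. By limma, GLDC was 2.77-fold lower in JH (log2 fold change -1.47, SE 0.29, limma adjusted p = 0.0375). The call ended with replicate number as a block (adjusted p = 0.0501), without a filter on low values, without the variance trend, and without JH1, JH2, LD1, LD2 or LD3 (0.0873 to 0.131).

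DLD, a subunit that the glycine cleavage system shares with other mitochondrial complexes, lay on the other side of 0, with a log2 fold change of 0.54 (limma, adjusted p = 0.258). Sarcosine dehydrogenase (SARDH), which makes glycine, had 44.3 ± 7.32 RPKM in the JH pigs against 88.2 ± 14.0 RPKM in the LD pigs (SD, n = 3 each, log2 fold change -0.99, limma adjusted p = 0.0766). SHMT2, which interconverts serine and glycine in mitochondria, had a log2 fold change of 0.83 (limma, adjusted p = 0.182). SDSL, the paralog of SDS, was above SDS per length in all 6 libraries and had a log2 fold change of 0.49 (limma, adjusted p = 0.285). How reads that fit several genes were counted is not given in the sources used here, so reads shared by such paralogs are uncertain.

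Alanine aminotransferase (GPT) exchanges amino groups between alanine and pyruvate. The JH pigs had 3.46, 3.12 and 1.24 RPKM of GPT (JH1 to JH3), and the LD pigs had 2.80, 4.80 and 3.22 RPKM (LD1 to LD3). JH3 was lowest, LD2 was highest, and the remaining 4 pigs of both breeds lay together. The fold change was 0.689 (95% confidence interval 0.365 to 1.30, limma adjusted p = 0.534), and the log2 value of -0.54 was -0.09 without JH3. Reads ranged from 31 in JH3 to 122 in LD2. The mitochondrial form GPT2 was above GPT per length in all 6 libraries, ranging from 9.61 RPKM in JH3 to 52.4 RPKM in JH1 (log2 fold change -0.17, limma adjusted p = 0.906).

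Cytosolic aspartate aminotransferase (GOT1) is part of the malate-aspartate shuttle. Levels of GOT1 were 48.6, 47.8 and 38.5 RPKM from JH1 to JH3 and 48.4, 55.7 and 51.7 RPKM from LD1 to LD3. JH3 was lowest, LD2 was highest, and the breeds overlapped. GOT1 had the smallest SD within breeds of the 7 members, 0.15 on the log2 scale, and a fold change of 0.863 (95% confidence interval 0.606 to 1.23, limma adjusted p = 0.665). Its mitochondrial counterpart GOT2 had a log2 fold change of -0.42 (limma, adjusted p = 0.400).

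LOC100517616 carries the gene ID of AGXT, the enzyme that transfers the amino group of alanine to glyoxylate. In JH1, JH2 and JH3 there were 203, 68.0 and 43.0 RPKM, and in LD1, LD2 and LD3 there were 25.2, 50.5 and 41.8 RPKM. JH1 was far above the other pigs, JH3 was below LD2, and the breeds overlapped. The log2 fold change of 1.16 (SE 0.52, limma adjusted p = 0.289) was 0.52 without JH1 and 1.64 without JH3. The mitochondrial enzyme AGXT2 had a log2 fold change of 0.20 (limma, adjusted p = 0.685).

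Ordered by mean RPKM over the 6 libraries, the members were HPD (776), TAT (248), FAH (137), GOT1 (48.5), HAL (7.14), SDS (6.22) and GPT (3.11). Ranges did not overlap between HPD and TAT, FAH and GOT1, or GOT1 and HAL. TAT was above FAH in all 6 libraries although their ranges overlapped, and in JH1 and LD1 their Poisson 95% intervals overlapped too. HAL was above SDS in 4 of 6 libraries, namely all LD pigs and JH2, while SDS was above HAL in JH1 and JH3. SDS was above GPT in all libraries but LD2. The Poisson 95% intervals overlapped for SDS and GPT in JH2 and LD1, and for HAL and SDS in LD3. Overlap of intervals is not a test of a difference, so the order in these libraries is left uncertain. The place of SDS among the last 3 members thus differed between pigs, and the ranges of neighbours overlapped.

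Remaining amino acid genes came from further lists. Over 7 lists with 82 genes, regulators included, 63 genes were tested and 6 were called, 3 in each direction, which is 9.52% beside 2.39% of all tested genes. The lists were written with earlier results of these data known, so the difference between these shares cannot be read as a result. Of the 6 genes only BCKDHA kept its call with any library left out. Among 10 tested aminotransferases and genes of the glutamate step, 1 was called, asparagine synthetase (ASNS), which builds an amino acid. JH1, JH2 and JH3 had 4.11, 5.67 and 10.18 RPKM of ASNS, and LD1, LD2 and LD3 had 1.39, 1.86 and 1.33 RPKM. All JH pigs were above all LD pigs (log2 fold change 1.97, SE 0.36, limma adjusted p = 0.0301). The call ended without a filter on low values and without JH2, LD1, LD2 or LD3 (adjusted p 0.0656 to 0.113), and ASNS could not be tested with the filter of 5 RPKM. ABAT, the aminotransferase of gamma-aminobutyrate, was next in size with a log2 fold change of -1.12 (limma, adjusted p = 0.0619).

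Branched-chain and lysine breakdown had 16 genes, all tested, with 1 called higher and 1 lower in JH and a median log2 fold change of 0.17. BCKDHA is a subunit of the complex that commits branched-chain amino acids to breakdown. The JH pigs had 11.6, 10.4 and 8.91 RPKM of BCKDHA (JH1 to JH3), and the LD pigs had 2.87, 2.58 and 2.02 RPKM (LD1 to LD3). BCKDHA was 4.04-fold higher in JH (log2 fold change 2.01, SE 0.25, limma adjusted p = 0.00665) and was called with any library left out. BCKDHB and DBT, other subunits of that complex, had log2 fold changes of 0.16 and 0.18 and were not called. Isovaleryl-CoA dehydrogenase (IVD) acts in leucine breakdown, and its means were 58.3 ± 16.5 RPKM for JH and 138 ± 22.1 RPKM for LD (SD, n = 3 each). IVD was lower in every JH pig (log2 fold change -1.26, SE 0.27, limma adjusted p = 0.0480). That call ended with a pseudocount of 0.01 RPKM, without a filter on low values, without the variance trend, with replicate number as a block (adjusted p = 0.0688), and without JH2, JH3, LD1, LD2 or LD3 (0.0679 to 0.155).

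Glyoxylate, hydroxyproline and proline genes gave 6 tested genes and 1 call. LDHB, a subunit of lactate dehydrogenase, had 511, 134 and 60.2 RPKM in the JH pigs and 15.8, 19.1 and 13.01 RPKM in the LD pigs. All JH pigs were above all LD pigs although JH1 was far above JH2 and JH3 (log2 fold change 3.34, SE 0.64, limma adjusted p = 0.0357). The call ended without a filter on low values, without the variance trend, and without JH2, LD1, LD2 or LD3 (adjusted p 0.0772 to 0.120). The log2 fold change itself was 2.5 without JH1 and 4.04 without JH3. HOGA1, an enzyme of hydroxyproline breakdown, was next in size with a log2 fold change of 0.42 (limma, adjusted p = 0.457).

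TAT and SDS are known targets of glucocorticoids and glucagon, and 15 genes with such responses or of their regulators were listed. Of 10 tested by limma none was called, and 2 had an unadjusted p under 0.05. Levels of the glucocorticoid response gene FKBP5 were 29.9, 16.3 and 30.4 RPKM from JH1 to JH3 and 4.96, 5.07 and 15.4 RPKM from LD1 to LD3. FKBP5 did not overlap between the breeds but was not called (log2 fold change 1.74, SE 0.45, limma adjusted p = 0.0919). FOXO1, a transcription factor of gluconeogenic genes, had a log2 fold change of -1.09 (limma, adjusted p = 0.108). Of the 10 tested genes, FKBP5, IGFBP1 and TSC22D3 were highest in JH3 among the JH pigs and in LD3 among the LD pigs, as TAT was. The margin was small for FKBP5 in JH3 (30.4 RPKM beside 29.9 in JH1) and for TSC22D3 in LD3 (28.2 RPKM beside 27.9 in LD2). IGFBP1, a binding protein of insulin-like growth factors, was at 10.8, 8.78 and 87.2 RPKM from JH1 to JH3 and at 4.88, 40.3 and 83.5 RPKM from LD1 to LD3. TSC22D3, a glucocorticoid response gene, was at 19.2, 16.4 and 43.65 RPKM in the JH pigs and 16.2, 27.9 and 28.2 RPKM in the LD pigs. The gluconeogenic gene PCK1 differed from TAT in JH, with 753, 85.0 and 28.0 RPKM from JH1 to JH3, and was highest in LD3 among the LD pigs (99.4, 113 and 169 RPKM from LD1 to LD3). CEBPB and KLF15 were listed at 0 in all 6 libraries.

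Genes with the most similar pattern were sought among 6462 tested genes averaging 5 RPKM or more, by the root mean square difference of centred log2 values over the 6 libraries. Nearest to SDS were LOC102158412 (0.32), NDUFAF6 (0.34), FKBP5 (0.37), ABHD2 (0.37) and LOC733635 (0.38). Among the 5 nearest to TAT were STARD4 (0.27), PLBD1 (0.31), LOC102159672 (0.34) and LOC100515185 (0.39). These genes were picked for their likeness, so nothing further is read from their pattern.

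Markers of some other liver cells were lower in JH. Over all tested genes, 1.36% were called lower in JH. Of 8 tested stellate cell and fibroblast markers, 3 were called lower (COL1A1, COL3A1 and LRAT), and the summed level was 71.8, 83.7 and 73.4 RPKM in the JH pigs beside 260, 333 and 169 RPKM in the LD pigs. COL1A1 (log2 fold change -2.77, limma adjusted p = 0.0144) was called with any library left out, and COL3A1, the most abundant (-1.75, adjusted p = 0.0159), was not called without LD1 or LD2 (0.0674 to 0.0811). Of 4 tested bile duct markers, EPCAM was called lower (-1.55, adjusted p = 0.0301), SPP1 was the most abundant, KRT7 was listed at 0, and the sums were 16.1, 20.01 and 9.32 RPKM for JH and 54.1, 48.3 and 21.9 RPKM for LD. Of 3 tested erythroid markers, HBB, the most abundant, was called lower (-1.39, adjusted p = 0.0459), with sums of 99.9, 92.3 and 124 RPKM for JH and 398, 216 and 239 RPKM for LD. LRAT (-1.72, adjusted p = 0.0384), EPCAM and HBB were not called without JH1, JH2, LD1, LD2 or LD3 (0.0566 to 0.147), and replicate number as a block ended the calls of LRAT (adjusted p = 0.0640) and HBB (0.0526). All 3 calls also ended without a filter on low values, that of HBB with a pseudocount of 0.01 RPKM or without the variance trend, and that of LRAT with a pseudocount of 1 RPKM, where its log2 fold change was -0.94. LRAT and EPCAM could not be tested with the filter of 5 RPKM and rest on few reads, 19 to 112 and 10 to 56 per library. None of 7 endothelial markers tested by limma was called and 2 had an unadjusted p under 0.05, but all 7 had a log2 fold change below 0 (median -0.48). In 3 of the 7 every JH pig was below every LD pig, as in 12.5% of all tested genes. Their sums were 283, 217 and 172 RPKM for JH and 279, 276 and 222 RPKM for LD, with CLEC4G the most abundant. None of 5 macrophage or 6 lymphocyte markers was called, with 1 and 0 at an unadjusted p under 0.05 and log2 fold changes on both sides of 0. The part of these cells in the lower AMDHD1, GLDC and IVD of JH was not tested.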

How the data were processed

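The authors sequenced mRNA libraries of 3 JH and 3 LD livers as single reads of 50 bases, trimmed and filtered them, and aligned them to Sus scrofa 10.2 with TopHat2 2.0.13. They deposited RPKM values for each library. The annotation and strand setting are not given in the sources used here. The miRNA files were not used here.

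Whole reads were recovered by searching library totals and gene lengths, which was tested on simulated data; reads are not independent molecules, so intervals cover counting error only. The breeds were compared with limma 3.58.1 in R 4.3.3 (lmFit, eBayes with trend), also tested on simulated data, and members by exact two-sided permutation. P-values measure the spread between pigs. Symbols missing from the files were sought by RefSeq gene ID (Sscrofa11.1), which matched AGXT, GCH1, HDC, SHMT2, GCAT, AMT, HIBCH, KRT19, KRT7 and AHSP. Builds differ, so no coordinates are printed.

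Members, lists and tests were chosen with earlier results of these data known. The text names all members, each list gene with an adjusted p under 0.05, the 2 tested genes of each pathway list with the largest log2 fold change in size, and the 5 genes nearest in pattern to SDS (largest fold change of the members) and TAT (largest SD within breeds). Other genes with values (GSTZ1, UROC1, DLD, SHMT2, SDSL, GPT2, GOT2, AGXT2, BCKDHB, DBT, PCK1, IGFBP1, TSC22D3, ALB, ARG1, HSD17B13, OAT and RN18S) were chosen after their values were seen. Some results of the lists and of the pattern search are not reported here. Alternatives were other pseudocounts, filters and scalings, no variance trend, no fold change limit, a replicate block, and each library left out. Figures were drawn with matplotlib 3.10.9.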

Additional observations from a re-analysis of the deposited data

How the results depend on the processing

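None of the 7 members was called under any of the 15 alternatives, GPT being untested with the filter of 5 RPKM. HPD, FAH, SDS, GPT and GOT1 kept their direction wherever tested. With each library left out, TAT ranged from -0.40 to 0.49 and HAL from -0.18 to 0.14 on the log2 scale. Of all tested genes 310 were called. A pseudocount of 0.01 RPKM gave 199, no filter on low values gave 200, and leaving out each library gave 79 (without LD1) to 406 (without JH3). The median log2 fold change of all tested genes moved from 0.04 to 0.15 without JH3 and to 0.14 with the filter of 5 RPKM. It fell below 0 without JH1 (-0.01), JH2 (-0.02) or LD3 (-0.06) and with no filter on low values (-0.01). The cause of these moves was not tested. Deviations from the breed means correlated across genes between same-numbered JH and LD libraries with r of -0.02, 0.05 and 0.18. The last, of JH3 and LD3, was the highest of any JH and LD pair, and 2 of 6 libraries correlated best with their own number. With so few libraries these values cannot show whether the numbers pair the pigs or share a batch. With replicate number as a block 253 genes were called, 200 of them also called without it, and of the genes named GLDC, IVD, GLUL, LRAT and HBB were not. Among the members, SDS and GPT had the fewest reads, 31 to 145 per library.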

Other observations

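Hepatocytes differ along the liver lobule, and HAL and SDS are known as genes of the periportal zone. Of 9 periportal genes listed, HAL and SDS included, 7 were tested by limma, none was called and 3 had an unadjusted p under 0.05, with a median log2 fold change of -0.03. ASS1 was the most abundant, and GLS2 and CDH1 were listed at 0. Arginase (ARG1), of the urea cycle, had 227, 96.3 and 92.2 RPKM in the JH pigs and 45.4, 48.1 and 86.0 RPKM in the LD pigs. All JH pigs were above all LD pigs, as in 10.8% of all tested genes, and the log2 fold change of 1.14 was near that of SDS (limma, adjusted p = 0.182). HSD17B13, a protein of lipid droplets, lay on the other side of 0, with a log2 fold change of -2.23 (limma, adjusted p = 0.0754).

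Of 9 pericentral genes listed, 7 were tested and 1 was called, against 2.39% of all tested genes. The breeds did not overlap in 4 of the 7, 2 in each direction, whereas 23.4% of all tested genes did not overlap. Besides the 2 genes described below, CYP2E1, the most abundant, was lower and TBX3 higher in every JH pig, and neither was called. Glutamine synthetase (GLUL) marks the hepatocytes at the central vein. JH1, JH2 and JH3 had 53.8, 42.1 and 72.7 RPKM of GLUL, and LD1, LD2 and LD3 had 113, 194 and 135 RPKM. GLUL was lower in every JH pig (log2 fold change -1.39, SE 0.30, limma adjusted p = 0.0490). The call ended with median scaling, a pseudocount of 0.01 RPKM, no filter on low values, no variance trend, replicate number as a block (adjusted p = 0.0703), and without JH1, JH2, LD1, LD2 or LD3 (0.107 to 0.167). Ornithine aminotransferase (OAT), listed as pericentral too, was above all LD pigs in all JH pigs, with a log2 fold change of 0.91 (limma, adjusted p = 0.194).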
